A study of Mus musculus with 7 samples.

Results

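The genes described here move calcium in skeletal muscle fibres. They are the 10 genes Ryr1, Cacna1s, Atp2a1, Atp2a2, Casq1, Casq2, Pvalb, Sln, Trdn and Jph1, taken by symbol from 44818 features of the deposited tables, and all 10 passed the filter on low counts that 16028 features passed. RNA was sequenced from mouse hindlimb tendon of C57BL/6 background in 7 libraries. The contralateral group (n = 3) was the intact right-leg tendon of mice given a partial-thickness back burn (60 °C for 18 s over 30% of the body surface) together with Achilles tenotomy of the left leg, taken 3 weeks later. The tenotomy group (n = 2) was the cut left-leg site of such mice at the same time, and the uninjured group (n = 2) was tendon of wild-type mice with neither burn nor tenotomy. No label names a change in TAK1, the kinase in the study's title, in any of these groups. The tissue ran from the insertion in the gastrocnemius muscle to the heel bone. The labels do not say which legs came from one mouse, how old the mice were or whether animals were pooled, so p-values measure only the spread between these libraries.

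In a skeletal muscle fibre, an action potential is sensed in the transverse tubule by a voltage-gated channel that is mechanically coupled to the calcium release channel of the sarcoplasmic reticulum. Calcium leaves the store, where it is held by calsequestrin, and contraction follows. Pumps of the SERCA family then return it, and in fast fibres the soluble protein parvalbumin binds calcium in the meantime. Fast and slow fibres use different SERCA pumps. Tendon cells themselves are not known for this apparatus.

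Sequences are shown for Atp2a2, whose transcripts behaved differently from each other, and for Sln, the smallest gene of the set. Atp2a2 (chromosome 5, 122453513 to 122502225, minus strand, GRCm38) makes the muscle pump SERCA2a and the general pump SERCA2b by using different ends of the same coding sequence. In the GENCODE M21 transcripts ENSMUST00000177974.3 (SERCA2a) and ENSMUST00000031423.8 (SERCA2b) the first 2983 coding bases are shared. The lines below give, 5′ to 3′, the last 30 shared bases in lower case and the transcript's own coding end, stop codon included, in capitals.
SERCA2a: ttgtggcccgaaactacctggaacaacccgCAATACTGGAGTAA
SERCA2b: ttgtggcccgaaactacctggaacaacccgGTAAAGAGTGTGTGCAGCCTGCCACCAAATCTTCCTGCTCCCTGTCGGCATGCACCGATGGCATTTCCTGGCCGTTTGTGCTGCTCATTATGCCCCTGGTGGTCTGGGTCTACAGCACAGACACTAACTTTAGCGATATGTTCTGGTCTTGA
The SERCA2a end has 14 bases of its own and the SERCA2b end 152. The whole coding sequence of Sln (chromosome 9, 53850164 to 53854560, plus strand), 96 bases with its stop codon, is given in capitals.
Sln: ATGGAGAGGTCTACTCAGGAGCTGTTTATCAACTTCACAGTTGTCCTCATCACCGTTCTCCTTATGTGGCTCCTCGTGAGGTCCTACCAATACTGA

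Library totals ranged from 25926984 to 36724920 rounded counts, of which 76.4% to 81.4% fell on 5 features, among them Gm42418, Lars2, Mir6236 and mt-Rnr2, leaving 4933818 to 8375440 counts for all other features. Tendon markers were present. Levels are in CPM (counts scaled to library size, with TMM as a correction for library composition). The tendon markers summed to 154 to 254 CPM in contralateral, 386 and 385 in tenotomy, and 345 and 234 in uninjured libraries. Macrophage markers summed to 18.5 to 22.9 CPM in contralateral and 88.3 and 91.7 in tenotomy libraries (5 of 6 called higher). Cartilage markers summed to 55.8 to 117.6 CPM in contralateral and 277 and 282 in tenotomy libraries (4 of 6 called higher and 1 lower). The part of these cells in the changes below was not tested. Skeletal muscle RNA was also present in every library. A list of 8 fibre genes (Acta1, Ckm, Ttn, Neb, Actn2, Tcap, Des and Myot) summed to 17530 to 17792 CPM in contralateral, 1311 and 1323 in tenotomy, and 1710.0 and 11459 in the uninjured libraries. The uninjured libraries thus stood apart from each other: for these genes replicate 1 lay near the tenotomy libraries and replicate 2 nearer the contralateral libraries. Replicate 1 was also near the tenotomy libraries in macrophage markers (94.0 CPM, against 22.7 in replicate 2). In adipocyte markers it was at 55.6 CPM, against 58.1 and 58.3 in tenotomy libraries and 159 in replicate 2. In endothelial markers it was at 41.7 CPM, against 39.7 and 39.9 in tenotomy libraries and 52.9 in replicate 2. It lay below the tenotomy libraries in Schwann cell markers (45.8 CPM, against 64.2 and 66.6). It was not near them in cartilage markers (123.6 CPM, against 89.8 in replicate 2). Whether its label is right was not tested, and each comparison with the uninjured group depends on it. The tests against the uninjured group are therefore given with and without replicate 1. All 7 libraries share 1 fit, so the SE and p-values of tenotomy against contralateral also take in the spread between the uninjured libraries. For Ryr1 the SE of that log2 fold change was 0.66 in this fit and 0.11 in the fit of only the groups compared. In such bulk tissue, fewer fibres, less muscle taken with the tendon and less RNA per fibre cannot be told apart.

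Every one of the 10 genes fell at the tenotomy site relative to contralateral tendon, by 2.62 to 3.56 on the log2 scale (edgeR quasi-likelihood test, adjusted p = 0.0167 to 0.0337), with a median log2 fold change of -3.10 against -0.0012 over all genes tested. Among all 16028 genes 15.4% were called lower and 13.6% higher in this comparison. In all 10 genes each tenotomy library lay below each contralateral library, as did 31.8% of all genes tested. The mean contralateral CPM was 6.13 to 12.1 times the mean tenotomy CPM. The same changes are shown in the plots of level and of log2 fold change.

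**Figure D1:**
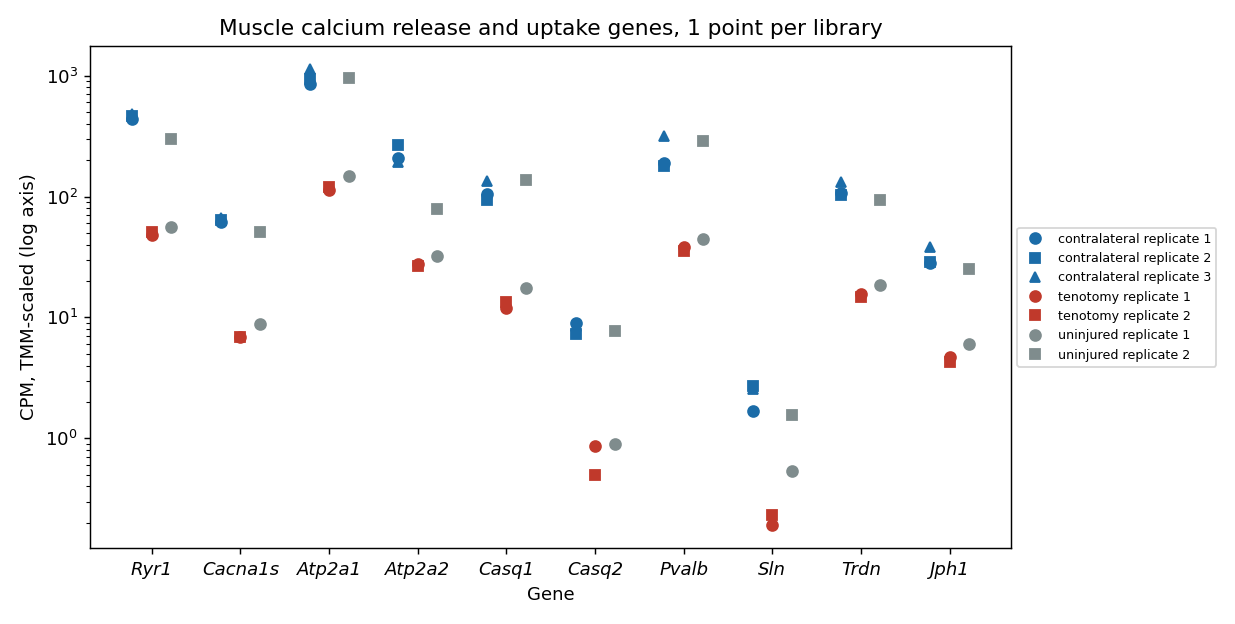
Level of each of the 10 genes in every library, as TMM-scaled CPM on a log axis, 1 point per library, coloured by group and shaped by replicate. For each gene the tenotomy points lie below all contralateral points. Uninjured replicate 1 lies above the tenotomy points (at 1.14 to 1.38 times their mean, or 2.54 times for Sln). Uninjured replicate 2 lies inside the contralateral range for Atp2a1, Casq2 and Pvalb and above it for Casq1. It lies below that range for the other 6 genes, farthest for Atp2a2 (78.1 CPM against 194 to 266).

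The voltage sensor and the release channel changed alike. Cacna1s (ENSMUSG00000026407.17; chromosome 1, 136052750 to 136119822, plus strand) encodes the pore subunit of the transverse-tubule calcium channel that senses voltage. It was at 61.4, 64.5 and 67.0 CPM in the contralateral libraries, 6.85 and 6.93 in the tenotomy libraries, and 8.77 and 50.7 in uninjured replicates 1 and 2. Its log2 fold change at the tenotomy site was -3.22 (SE 0.67, edgeR adjusted p = 0.0169). Ryr1 (ENSMUSG00000030592.18; chromosome 7, 29003344 to 29125179, minus strand) encodes the release channel of the sarcoplasmic reticulum. It was at 442, 464 and 479 CPM in contralateral, 47.9 and 50.9 in tenotomy, and 56.3 and 300.0 in uninjured libraries. Its log2 fold change was -3.23 (SE 0.66, edgeR adjusted p = 0.0167). These were the most even of the 10 genes within the contralateral group, with coefficients of variation of 4.06% for Ryr1 and 4.39% for Cacna1s, against 10.8% to 33.7% for the other genes. In uninjured replicate 2 both lay below all contralateral libraries.

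Jph1 and Trdn encode proteins that hold the release site together. Jph1 (ENSMUSG00000042686.5; chromosome 1, 16964560 to 17097889, minus strand) encodes junctophilin 1, which ties the sarcoplasmic reticulum to the transverse tubule. It was at 28.4, 28.6 and 38.3 CPM in contralateral, 4.73 and 4.30 in tenotomy, and 6.07 and 25.0 in uninjured libraries (log2 fold change at the tenotomy site -2.81, SE 0.56, edgeR adjusted p = 0.0167). Trdn (ENSMUSG00000019787.9; chromosome 10, 33080554 to 33476709, plus strand) encodes triadin, which anchors calsequestrin beside the release channel. It was at 108, 103 and 132 CPM in contralateral, 15.6 and 14.7 in tenotomy, and 18.6 and 94.0 in uninjured libraries (log2 fold change -2.91, SE 0.63, edgeR adjusted p = 0.0176). Over the 7 libraries the log2 CPM of these genes had the highest Pearson correlation among the 45 pairs of members, r = 0.9986. The libraries share the split in muscle content, so such values are a description only.

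The calsequestrins are the calcium-binding proteins of the store. Casq1 (ENSMUSG00000007122.11; chromosome 1, 172209894 to 172219868, minus strand) was at 104, 93.8 and 135 CPM in contralateral, 11.9 and 13.4 in tenotomy, and 17.5 and 138 in uninjured libraries. Its log2 fold change was -3.13, with an SE of 0.78 and an edgeR adjusted p of 0.0242. Casq2 (ENSMUSG00000027861.13; chromosome 3, 102086415 to 102146514, plus strand), a form of heart and slow fibres, was at 8.96, 7.26 and 8.57 CPM in contralateral, 0.870 and 0.4999 in tenotomy, and 0.898 and 7.74 in uninjured libraries. At -3.56 on the log2 scale (SE 0.81 by edgeR, adjusted p = 0.0196) its change was the largest of the 10 in this fit, on 32 and 15 counts in the tenotomy libraries. Sln changed more than Casq2 with the series of sample title numbers as a covariate (-3.60 against -3.24), with length-scaled TPM (-3.47 against -3.38), without contralateral replicate 1 (-3.64 against -3.51) and without tenotomy replicate 2 (-3.60 against -3.25). Compared per length, as transcript abundance in TPM, Casq1 exceeded Casq2 in every library. The ratio was 13.6, 18.6 and 20.6 in contralateral, 16.0 and 28.8 in tenotomy, and 28.4 and 22.6 in uninjured libraries, and the groups overlapped. The log2 ratio differed by 0.31 between tenotomy and contralateral (exact permutation p = 0.6, two-sided; the smallest possible with 3 against 2 libraries is 0.2).

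The pumps of fast and slow fibres fell by like amounts as whole genes. Atp2a1 (ENSMUSG00000030730.12; chromosome 7, 126445858 to 126463108, minus strand) encodes SERCA1, the pump of fast fibres. It was at 858, 941 and 1140.1 CPM in contralateral, 114 and 120.0 in tenotomy, and 148 and 949.6 in uninjured libraries, and its log2 fold change at the tenotomy site was -3.07 (SE 0.72, edgeR adjusted p = 0.0209). Atp2a2 (ENSMUSG00000029467.15) was at 207, 266 and 194 CPM in contralateral, 27.9 and 26.8 in tenotomy, and 32.2 and 78.1 in uninjured libraries, and its log2 fold change was -3.02 (SE 0.41, edgeR adjusted p = 0.0167). The Atp2a1 to Atp2a2 ratio in TPM was 5.32, 4.53 and 7.50 in contralateral and 5.31 and 5.79 in tenotomy libraries. The log2 ratio differed by -0.03 (exact permutation p = 1, two-sided). The ratio was 5.93 in uninjured replicate 1 and 15.6 in uninjured replicate 2, the highest of the 7 libraries.

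The transcripts of Atp2a2 did not keep their proportions, as the bar plot of SERCA2a and SERCA2b shows. The SERCA2a transcript was at 180, 235 and 169 CPM in contralateral libraries and 12.7 and 12.4 in tenotomy libraries, a ratio of means of 15.5. The SERCA2b transcript was at 27.0, 30.4 and 24.4 CPM in contralateral and 15.2 and 14.4 in tenotomy libraries, a ratio of means of 1.85. SERCA2a made up 88.1% ± 0.806 (SD, n = 3) of the coding Atp2a2 TPM in contralateral and 47.0% ± 0.490 (SD, n = 2) in tenotomy libraries. Its share was 57.5% in uninjured replicate 1 and 80.8% in replicate 2. The shares of the tenotomy and contralateral libraries did not overlap, and no test was made on them. SERCA2b stayed at 14.0 and 15.5 CPM in the uninjured libraries, while SERCA2a stood at 18.2 in replicate 1 and 62.6 in replicate 2. The split between transcripts is a model estimate that rests on reads over the last exons and the untranslated ends. Atp2a1 had a single full-length coding transcript, with 98.6% to 99.4% of its coding TPM in every library.

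**Figure D2:**
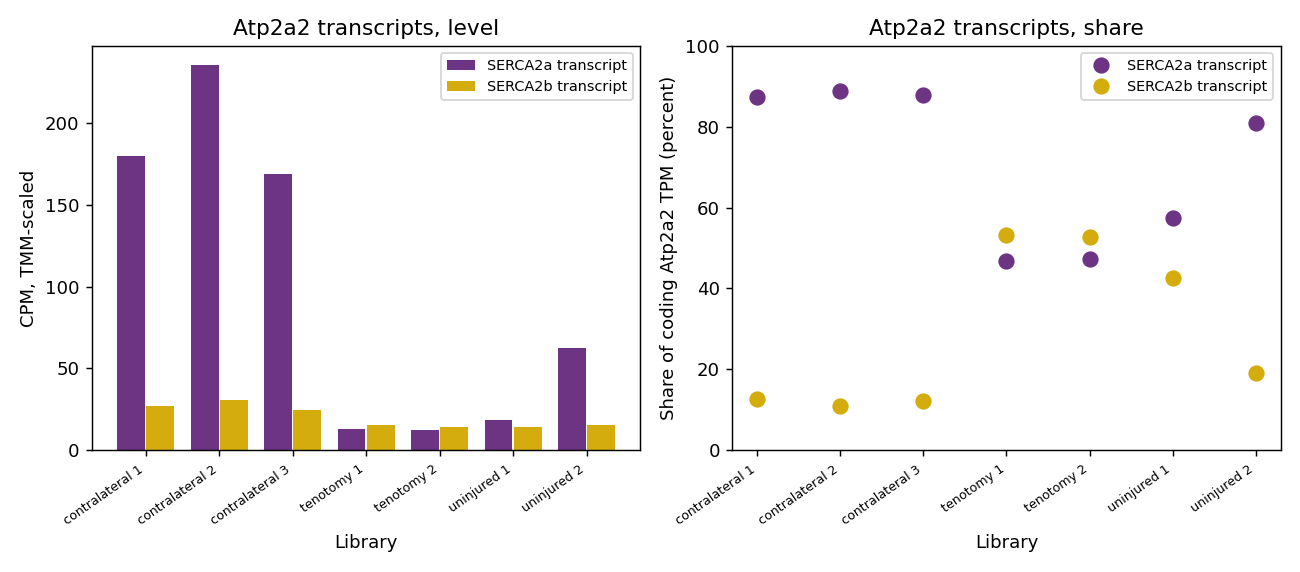
SERCA2a and SERCA2b transcripts of Atp2a2 by library: left, bars of TMM-scaled CPM; right, points for the percent of coding Atp2a2 TPM. SERCA2a stands at 169 to 235 CPM in the contralateral libraries and at 12.4 and 12.7 in the tenotomy libraries, where SERCA2b holds more than SERCA2a.

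Smooth muscle uses SERCA2 as well. The summed level of 5 smooth muscle markers was 112 to 142 CPM in contralateral, 49.3 in each tenotomy library, and 59.1 and 85.7 in uninjured libraries, with 4 of 5 called lower and 0 higher at the tenotomy site. The summed level of 4 heart muscle markers was at most 1.79 CPM in any library, although none was at 0 in all of them. The part of these cells in the Atp2a2 values was not tested.

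Sln (ENSMUSG00000042045.6) encodes sarcolipin, the small membrane protein whose coding sequence is printed above and which inhibits SERCA pumps. It was at 1.69, 2.73 and 2.57 CPM in contralateral, 0.190 and 0.233 in tenotomy, and 0.539 and 1.55 in uninjured libraries. Its log2 fold change at the tenotomy site was -3.45 (SE 0.52, edgeR adjusted p = 0.0167), on 7 counts in each tenotomy library against 45 to 96 in contralateral libraries. Other small regulators of SERCA were also low. Pln, encoding phospholamban, fell by 1.62 (SE 0.27, edgeR adjusted p = 0.0167), from 3.71, 4.15 and 3.80 CPM to 1.39 and 1.13. Mrln, encoding myoregulin, had 28, 39 and 50 counts against 15 and 9 (log2 fold change -1.78, SE 0.61, edgeR adjusted p = 0.0631). Strit1, encoding the SERCA activator DWORF, had no feature under that symbol and is not analysed here.

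Pvalb (ENSMUSG00000005716.16; chromosome 15, 78191114 to 78206400, minus strand) encodes parvalbumin, the calcium buffer of fast fibres. It was at 189, 178 and 316 CPM in contralateral, 38.6 and 35.7 in tenotomy, and 45.0 and 289 in uninjured libraries. The change at the tenotomy site, -2.62 (SE 0.73, edgeR adjusted p = 0.0337), was the smallest of the 10 genes. Its coefficient of variation among contralateral libraries, 33.7%, was the highest, with contralateral replicate 3 above the others. Contralateral replicate 3 was also the highest of its group for the summed fast-fibre markers (8511 CPM against 6298 and 6573) and the lowest for the slow-fibre markers (748 CPM against 858 and 1031).

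**Figure D3:**
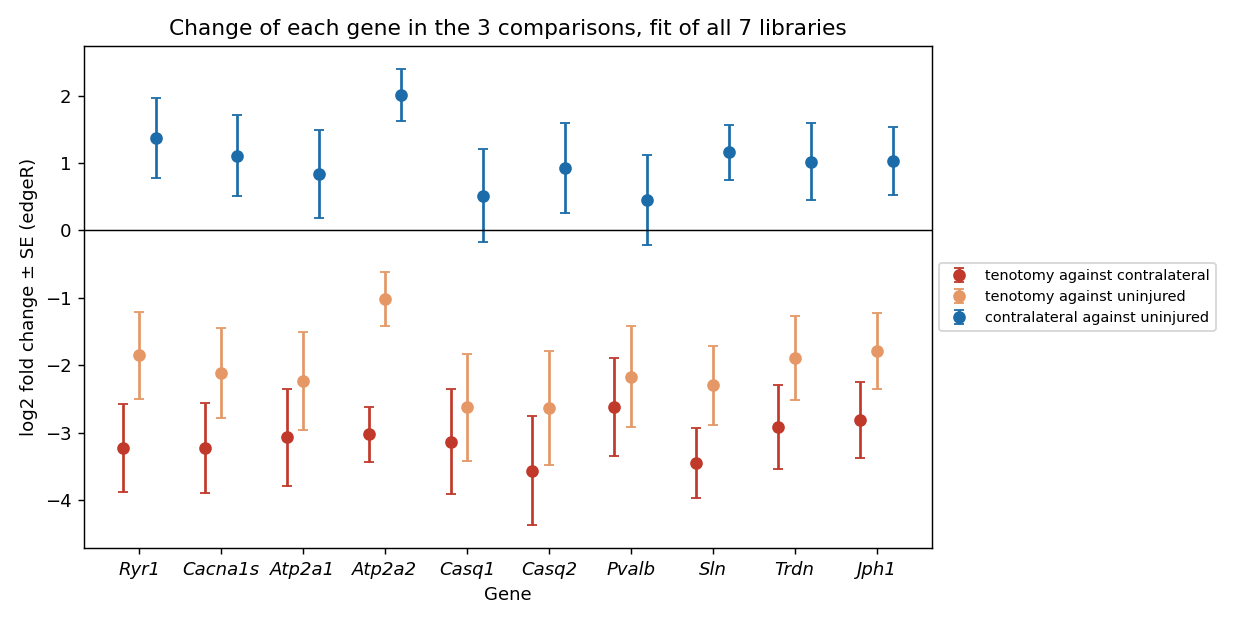
log2 fold change (points) with its SE (bars) from edgeR for each of the 10 genes in the 3 comparisons. All tenotomy against contralateral values lie between -3.56 and -2.62, and Atp2a2 has the smallest change against uninjured (-1.01) and the largest between contralateral and uninjured (2.01).

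In TPM, which compares genes per length, Pvalb (44.9 ± 8.45, SD, n = 3) and Atp2a1 (42.6 ± 1.93) were highest in contralateral tendon and did not differ beyond the spread between libraries. Casq1 (9.85 ± 0.692) and Atp2a2 (7.73 ± 2.10) came next and overlapped, followed by Ryr1 (4.28 ± 0.447) and Trdn (3.73 ± 0.0812), which also overlapped. Cacna1s (1.58 ± 0.186), Sln (1.24 ± 0.302) and Jph1 (1.05 ± 0.0422) formed a run in which each neighbour overlapped the next. Within each contralateral library, however, Ryr1 ranked above Trdn, and Cacna1s above Sln and Jph1. Casq2 (0.579 ± 0.148) was lowest and lay below all of Jph1. At the tenotomy site the order of means was nearly the same, from Pvalb at 7.13 ± 0.114 (SD, n = 2) and Atp2a1 at 5.00 ± 0.556 to Casq2 at 0.0517 ± 0.0118. There Trdn and Ryr1, and Jph1 and Sln, had changed places. In the uninjured group each neighbour overlapped the next, because its 2 libraries lay so far apart. Within each of them Pvalb ranked 1, Atp2a1 2 and Casq1 3.

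The 10 genes were next set against the 8 fibre genes of the same library, which asks whether they fell as far as muscle RNA in general. The fibre genes themselves had log2 fold changes of -4.19 to -3.15, with 8 of 8 called lower and a median of -3.65. Relative to their mean, the level of each of the 10 genes was higher at the tenotomy site than in contralateral tendon, by 0.10 to 1.05 on the log2 scale with a median of 0.54. For 9 of the 10 genes both tenotomy libraries lay above all contralateral libraries, and Casq2 was the exception. On this scale 99.1% of all genes tested did so, with a median difference of 3.62, so the count says nothing particular to the 10 genes, whose differences were far below that median. Pvalb differed most, at 1.05, followed by Jph1 at 0.83 and Trdn at 0.71. Each of these single-gene tests gave an exact permutation p of 0.2 or more, and 0.2 is the smallest possible. The differences of Sln (0.53) and Casq2 (0.10) rest on few counts. They were 0.28 and 0.01 with a prior count (added before the log) of 0.5 in place of 2. Against 10 fast-fibre genes instead, whose median log2 fold change was -3.15, the median difference was 0.21, with 9 of 10 genes positive and Casq2 at -0.23. Relative to the 8 fibre genes, the median level differed from the uninjured group by 0.13 at the tenotomy site (0.36 without uninjured replicate 1) and by -0.47 in contralateral tendon (-0.20 without it). The 6 slow-fibre genes had a median log2 fold change of -4.22, with 6 of 6 called lower.

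**Figure D4:**
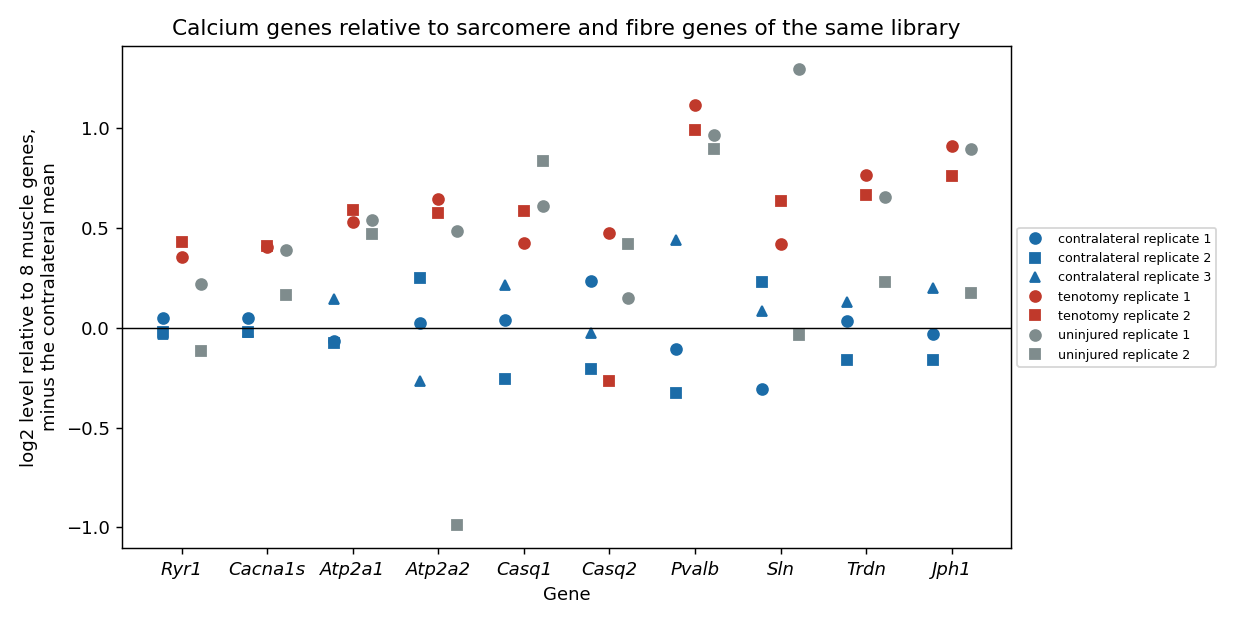
log2 CPM of each gene minus the mean log2 CPM of 8 muscle fibre genes in the same library, shown as the difference from the contralateral mean, 1 point per library. The tenotomy points lie above the contralateral points for every gene but Casq2, and uninjured replicate 2 lies lowest of all libraries for Atp2a2 and Ryr1.

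Title numbers of the samples fall in 3 series, which no label calls a batch. Uninjured replicate 1 shares a series with tenotomy replicate 2, and uninjured replicate 2 is alone in its series. Within the series that holds the contralateral libraries and tenotomy replicate 1, the 10 genes were lower at the tenotomy site by 2.56 to 3.61 on the log2 scale. Tenotomy replicate 2, of another series, gave log2 differences from the contralateral mean of -4.05 to -2.67. From uninjured replicate 1, of its own series, it differed by -1.21 to -0.15, with a median of -0.34. The part of the series in the likeness of uninjured replicate 1 to the tenotomy libraries was not tested. With the series as a covariate, 10 of 10 were called (edgeR adjusted p at most 0.000105), where 34.8% of all genes were called. The call for all 10 genes was lost when any single contralateral or tenotomy library was left out, since 0 of all genes then passed in edgeR (adjusted p of the 10 genes 0.0501 to 0.183). In those fits 10 of the 10 genes had an unadjusted p under 0.05, or 9 without tenotomy replicate 2, and the log2 fold changes lay between -4.04 and -2.30. Without uninjured replicate 1 or replicate 2, 10 of 10 were called, where 42.9% and 43.5% of all genes were called. Under the 11 other alternatives, the fit of only the groups compared among them, 10 of 10 were called as well. The share of all genes called was then 29.9% with upper quartile scaling, 29.0% with DESeq2 size factors (as in the main test, in either direction), 28.2% with library totals, 28.9% with scaling without muscle genes and 29.4% without the 5 features with most counts. It was 23.4% by DESeq2, 27.9% by limma-voom, 17.3% with no filter, 43.4% with at least 50 counts, 19.6% with length-scaled TPM, and 46.1% with only the groups compared, a fit without the uninjured libraries.

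Against the uninjured group, the second comparison of the design, the tenotomy libraries were lower for all 10 genes but none passed the edgeR test (log2 fold changes -2.63 to -1.01, adjusted p = 0.450 to 0.454). Here 0% of all genes were called. All 10 had an unadjusted p under 0.05, as 7.59% of all genes did in that direction, and neither tenotomy library overlapped the uninjured libraries for any of the 10 genes, against 20.4% of all genes. DESeq2 called 7 of the 10 lower, where it called 0.873% of all genes. No filter on low counts and the series covariate called 0 of the 10, with 0.0515% and 0.0250% of all genes called. DESeq2 gave no adjusted p for Casq2 and Sln and did not call Atp2a2 (adjusted p = 0.169). Uninjured replicate 1 was 1.14 to 1.38 times the tenotomy mean CPM for 9 of the genes and 2.54 times for Sln, which rested on 15 counts there. Without that library, 10 of 10 genes were called lower at the tenotomy site (edgeR adjusted p at most 0.000463), where 25.1% of all genes were called. The uninjured group is then 1 library, assumed to vary like the other groups. Without uninjured replicate 2 instead, 0 of 10 were called (0.0830% of all genes), 3 had an unadjusted p under 0.05, and the log2 fold changes were -1.34 for Sln and -0.47 to -0.19 for the others.

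The 3 comparisons share their libraries and are not independent. Between contralateral and uninjured tendon, all 10 genes had a positive log2 fold change, 0.45 to 2.01, and none passed in edgeR (adjusted p = 0.215 to 0.722), where 0% of all genes were called. Atp2a2 and Sln had an unadjusted p under 0.05, in a comparison where 8.72% of all genes were higher at that level. DESeq2 called Atp2a2 alone of the 10, with 1.36% of all genes called, as did edgeR with no filter on low counts (1.16%), and limma-voom called 0. With the series covariate 9 of 10 were called (15.4% of all genes), and without uninjured replicate 2 10 of 10 (32.0%); in both, uninjured replicate 1 sets the uninjured level. Uninjured replicate 2 was inside the contralateral range for Atp2a1, Casq2 and Pvalb, above it for Casq1 and below it for the other 6 genes. Both uninjured libraries lay below all contralateral libraries for these 6, as for 18.9% of all genes. The contralateral mean of Atp2a2 was 2.84 times its value in uninjured replicate 2, against 1.54 times for Ryr1 and 1.03 times for Atp2a1. Fitted without uninjured replicate 1, Atp2a2 was the 1 gene of the 10 that was called (log2 fold change 1.51, SE 0.19, edgeR adjusted p = 0.00565), where 0.617% of all genes were called. Casq1 and Pvalb were then at -0.32 and -0.34 (edgeR adjusted p = 0.563 and 0.683). In the same library the contralateral means of the summed slow-fibre and fast-fibre markers were 2.02 and 1.15 times its values. The part of fibre type in the Atp2a2 value was not tested.

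Another 63 genes of calcium handling were listed by role, of which 62 were in the tables and 59 passed the filter. At the tenotomy site 32 of the 59 were called lower and 5 higher relative to contralateral tendon, and the median log2 fold change was -1.03. Of all genes tested 15.4% were called lower and 13.6% higher, so the share of the 59 called higher was no greater than that of all genes. Of 18 other triad genes 16 were called lower and 0 higher, with a median of -2.03. The largest changes were in Srl, encoding the store's calcium-binding protein sarcalumenin (log2 fold change -3.67, SE 0.79, edgeR adjusted p = 0.0177), and Jsrp1, a junctional protein that binds Cacna1s (-3.09, SE 0.66, adjusted p = 0.0174). Fkbp1a, a ryanodine receptor partner made in many cell types, was at 8.58, 10.7 and 11.7 CPM in contralateral and 11.9 and 12.2 in tenotomy libraries and was not called. Of 9 other pump and exchanger genes and regulators, 4 were called lower and 0 higher. Among them were the plasma membrane pump gene Atp2b3 (-2.79, SE 0.65, edgeR adjusted p = 0.0204) and the sodium-calcium exchanger gene Slc8a3 (-1.80, SE 0.37, edgeR adjusted p = 0.0167).

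Of 9 genes of store-operated entry and mitochondrial uptake, 3 were called lower and 0 higher. They included Stim1, the calcium sensor of the store (log2 fold change -1.75), and Mcu, the pore of the mitochondrial uniporter (-0.77), with edgeR adjusted p-values of 0.0193 and 0.0167. Of the buffers and sensors, 4 of 7 passed the filter. S100a1 fell by 2.21 (edgeR adjusted p = 0.0167), whereas the calmodulin gene Calm2 rose by 0.62 (edgeR adjusted p = 0.0394) from 11.5, 13.2 and 14.9 CPM to 21.3 and 19.3. Of 14 genes of calcineurin and CaM kinase signalling, 8 were called lower and 2 higher. Myoz2, encoding a calcineurin-binding protein of the slow-fibre Z-disc, changed most (-4.70, SE 0.82, edgeR adjusted p = 0.0167), and the kinase gene Camk2b changed by -3.27 (SE 0.48, edgeR adjusted p = 0.0167). The 2 called higher are close to the share of all genes called higher. They were the transcription factor genes Nfatc1 and Nfatc2, which rose by 0.62 and 0.68 (edgeR adjusted p = 0.0206 and 0.0167). Of 5 genes of calcium release and storage in the general endoplasmic reticulum, 0 were called lower and 2 higher. These were Calr, encoding calreticulin (0.86, edgeR adjusted p = 0.0274), and the inositol trisphosphate receptor gene Itpr3 (0.52, edgeR adjusted p = 0.0394).

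**Figure D5:**
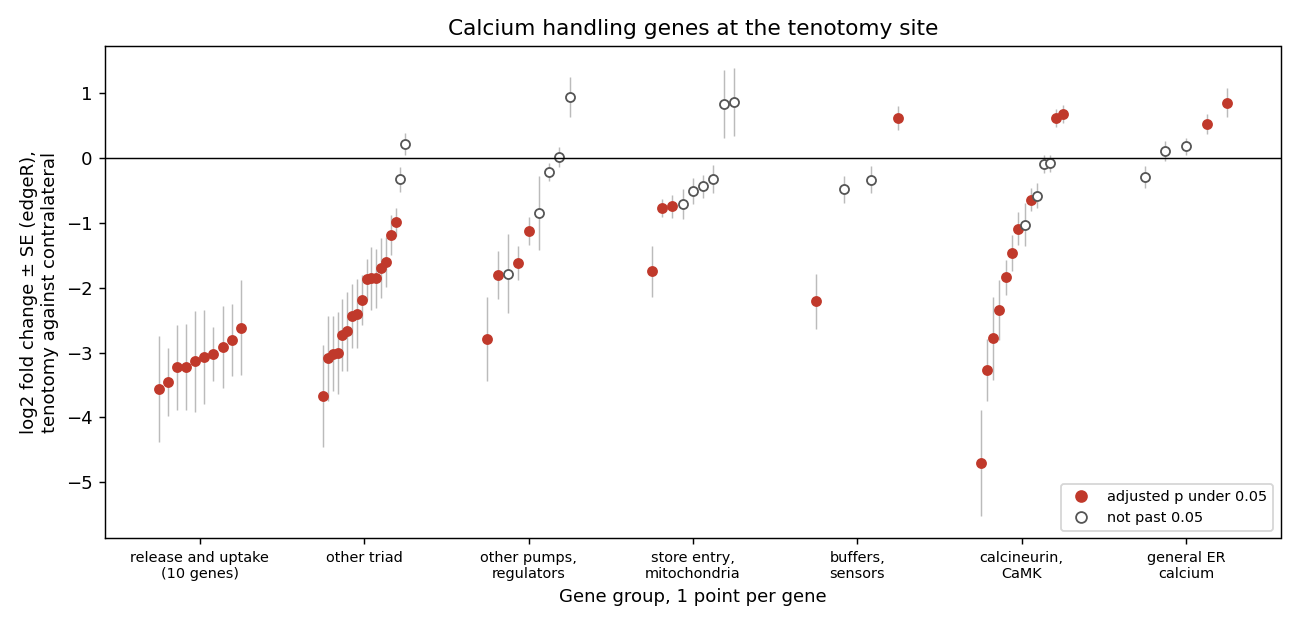
log2 fold change with SE (edgeR, tenotomy against contralateral) of the 10 genes and of 59 other calcium genes by role, 1 point per gene; filled points passed an adjusted p of 0.05. The 10 genes lie between -3.56 and -2.62, other triad genes between -3.67 and 0.22, and the called genes of the general endoplasmic reticulum above 0.

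The genes outside the set with the most similar pattern over the 7 libraries were ranked by Pearson r of log2 CPM, among 2083 genes with a mean log2 CPM of at least 3. Ppp1r3a, Srl, Tnnt3, Psme4 and Prkaa2 were closest to the mean of the 10 genes, with r from 0.9992 to 0.9994. Neb, Tcap and Des were closest to Ryr1, and Ckm, Klhl31 and Tnnt3 to Atp2a1. Those closest to Cacna1s were Myo18b, Gyg and Klhl24. For Trdn they were Psme4, Srl and Tnnt3, and for Jph1 Ppp1r3a, Mylk4 and Psme4. Arfgap2, Synpo2l and Dnajc7 were closest to Casq2, and Dcaf8, Smpx and Apobec2 to Sln. Mylpf, Mybpc2 and Actn3 were closest to Pvalb, and Actn3, Tpm1 and Mybpc2 to Casq1. For Atp2a2 they were Myl9, Fbxo32 and Tpm3 (r = 0.9975 to 0.9991). Atp2a2 also had the lowest correlation with any other member, 0.86 with Pvalb. The points share the contrast between libraries rich and poor in muscle RNA.

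The 250 bases before the RefSeq start (GRCm38.p6) were searched for motifs of muscle promoters. Whether these motifs had a part in the changes was not tested. RefSeq promoters were found for 6 of the 10 genes, 7 windows in all because Pvalb has another start. They were Cacna1s, Casq1, Casq2, Ryr1, Atp2a1 and Pvalb. The E-box CAGCTG, searched on both strands as a special case of CANNTG, was in 3 of the 7 windows (Cacna1s, Casq1 and Atp2a1), against 13.0% of 32851 promoters. CANNTG was in 5 of the 7 against 66.2%. The MEF2 motif was in 2 (Casq2 and Pvalb) against 2.92%, the CArG box in 0 against 1.47%, and TATAAA in 0 against 12.4%. A match is only a match of letters. The windows of Casq1, Casq2 and Pvalb are printed because they overlap no annotated exon and hold matches, in lower case with CAGCTG or MEF2 matches in capitals, 5′ to 3′ on the gene's strand.
Casq1 (chr1:172219896-172220145, minus strand): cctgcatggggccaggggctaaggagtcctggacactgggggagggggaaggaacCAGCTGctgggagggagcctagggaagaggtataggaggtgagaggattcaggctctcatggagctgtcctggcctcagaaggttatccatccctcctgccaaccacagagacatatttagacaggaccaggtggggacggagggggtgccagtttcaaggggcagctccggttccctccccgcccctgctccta
Casq2 (chr3:102086165-102086414, plus strand): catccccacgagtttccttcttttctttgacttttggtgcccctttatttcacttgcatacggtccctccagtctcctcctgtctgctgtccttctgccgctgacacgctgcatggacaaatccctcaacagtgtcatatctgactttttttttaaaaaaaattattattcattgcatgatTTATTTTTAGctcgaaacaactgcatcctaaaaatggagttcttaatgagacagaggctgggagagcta
Pvalb (chr15:78206401-78206650, minus strand): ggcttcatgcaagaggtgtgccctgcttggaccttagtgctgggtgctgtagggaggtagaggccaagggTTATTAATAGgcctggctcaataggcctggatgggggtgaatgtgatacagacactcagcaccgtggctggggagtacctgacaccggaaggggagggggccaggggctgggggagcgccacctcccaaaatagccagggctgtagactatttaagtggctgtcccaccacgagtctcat
The match begins 195 bases before the start in Casq1, 69 in Casq2 and 180 in Pvalb.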

How the data were processed

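Each deposited file lists 103639 transcripts of 1 library. The estimated counts and the TPM in them were deposited by the authors, and per the submitters' processing notes kallisto and FastQC 0.11.4 were used. Those notes name GRCh38, a human build, while all transcript IDs are mouse. The annotation release is not given in the sources used here. IDs were matched without version to GENCODE M21 (GRCm38): 101510 matched, 57625 with the same version. Estimated counts were summed per gene, rounded, filtered with filterByExpr (minimum count 10) and scaled by TMM. The test was edgeR 4.0.16 quasi-likelihood (R 4.3.3) in 1 fit of 7 libraries with 3 group means, Benjamini-Hochberg adjusted over 16028 features, threshold 0.05. The SE is the log2 fold change divided by the root of its F statistic. Log2 CPM used a prior count of 2. TPM of a gene sums its transcripts. Exact permutation tests used Python 3.11.15.

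The 10 genes, the wider list and the markers were chosen with earlier results of these data known. Genes named from the wider list were the 2 largest called changes per role, every called gene of opposite direction, and Pln, Mrln and Strit1; Fkbp1a and the promoter motifs were chosen after values were seen. Alternatives were other scalings, DESeq2 1.42.0, limma-voom 3.58.1, filters, the fit of 2 groups, the title-number series, length-scaled TPM, other feature sets and leaving out each library. The scripts were tested on simulated counts. There 145 of 200 changed genes were called in tenotomy against contralateral, along with 22 unchanged genes. Replicates were numbered in accession order. Strand use is not given in the sources used here, so reads of an antisense gene and of the gene cannot be told apart; the protein-coding gene Rabep2, opposite to Atp2a1, had 69.6 to 169 counts.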

Additional observations from a re-analysis of the deposited data

How the results depend on the processing

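No paired analysis was possible because the labels give no replicate numbers. In tenotomy against contralateral, the 10 genes kept their call and direction under the 11 alternatives that kept every library and in the fit of only the groups compared. Leaving out a library gave 0 to 10 calls among the 10 genes and 0 to 47 among the wider list. Against uninjured, DESeq2 called 7 of the 10 genes and 9 of the wider list, and leaving out a library gave 0 to 10 and 0 to 38 (the highest without uninjured replicate 1). Between contralateral and uninjured, DESeq2 and no filter on low counts each called 1 of the 10 genes and 2 of the wider list, the title-number series as covariate 9 and 23, and leaving out a library 0 to 10 and 0 to 38. In that covariate fit uninjured replicate 1 alone stands for its group. Casq1 and Pvalb reversed without uninjured replicate 1, to -0.32 and -0.34 (2.67 and 2.34 without uninjured replicate 2). The median level relative to muscle genes moved from 0.54 to 0.21 against fast-fibre genes, and with log2(TPM + 0.5) to 1.04, and against uninjured from 0.13 to 0.74 (0.36 without uninjured replicate 1), where the pseudocount exceeds the tenotomy TPM of several genes. Between contralateral and uninjured it moved from -0.47 to -0.15 against fast-fibre genes and to -0.72 with log2(TPM + 0.5). Against the muscle genes it was -0.20 without uninjured replicate 1. By estimated counts the SERCA2a share at the tenotomy site was 46.0%, and the share of the full-length Atp2a1 transcript 99.9% in each group. Depth limits Sln and Casq2 at the tenotomy site.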

Other observations

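Ryr1 is listed with coding sequences of 15105 and 15099 bases, and the longer one held 95.2%, 92.1% and 94.9% of the coding TPM in contralateral, 88.9% and 90.1% in tenotomy, and 96.7% and 93.9% in uninjured libraries. The tenotomy libraries were the lowest of the 7, and the difference was not tested. For Cacna1s, the transcript with 5493 coding bases held 0%, 6.08% and 4.92% of the coding TPM in contralateral, 46.4% and 13.5% in tenotomy, and 0% and 8.08% in uninjured libraries, so the tenotomy libraries differed more from each other than the contralateral libraries did. Its tenotomy shares rest on 116 and 27.5 estimated counts. For both genes the split between such similar transcripts is a model estimate.

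Among markers of regenerating fibres, Myh3, the embryonic myosin heavy chain, was at 5.51, 4.13 and 2.41 CPM in contralateral and 0.0816 and 0.167 in tenotomy libraries (log2 fold change -5.01, edgeR adjusted p = 0.0175). The tenotomy values of Myh3 rest on 3 and 5 counts, against 147, 145 and 78 in contralateral libraries. Of 6 such markers 5 passed the filter, 2 (Myh3 and Chrna1) were called lower and 0 higher at the tenotomy site relative to contralateral tendon. Of all genes tested 15.4% were called lower and 13.6% higher.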
